A study of Caenorhabditis elegans with 19 samples.

Results

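LIN-14 sites that lie 1 to 3 kb past the start of a protein-coding transcript, in the direction of transcription, are described here in second-stage (L2) and first-stage (L1) larvae of Caenorhabditis elegans. A site was counted when the authors' annotation put it in the promoter class of 1 to 2 kb or of 2 to 3 kb, with a positive distance to the start of its nearest transcript and a protein-coding transcript assigned. The rule uses position only. It took 1863 of 8333 annotated L2 peaks and 7103 of 37018 annotated L1 peaks. In the authors' comparison of the stages it took 2988 of 14675 listed sites.

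The study measured LIN-14 occupancy by chromatin immunoprecipitation and sequencing (ChIP-seq), in which DNA bound by a protein is pulled down and sequenced. All L2 and L1 larvae carried the allele lin-14(cc2841[lin-14::gfp]), in which LIN-14 has GFP at its C terminus, and chromatin of whole bodies was taken on GFP-binding beads. There were 5 ChIP and 4 input libraries of L2 larvae, taken 21 ± 1 hours after plating, and 5 ChIP and 4 input libraries of L1 larvae, taken 8 ± 1 hours after plating. The labels list 19 libraries, of which 1 is an L1 ChIP library of the untagged N2 strain, not analysed here, so sites that appear without the tag are not set aside. Each stage has 1 peak list called on merged libraries, without libraries that the peak names mark as outliers, so peak values carry no replicate error and the depth per library is unknown. The labels do not say whether replicates are separate cultures, so the spread between libraries that the deposited p-values measure may be technical. In whole larvae, fewer cells with a bound site and less binding per cell cannot be told apart.

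LIN-14 is a DNA-binding protein that specifies the events of the first larval stage, and its level falls afterwards under repression by the microRNA lin-4. It belongs to the heterochronic pathway, the set of regulators that orders larval stages in worms. Transcription factors bind inside genes as well as before them, and worm genes lie close together, so a place past one gene's start may also lie past its end, near or inside another gene. Assignment to the nearest start gives a site an address and does not show which gene it acts on.

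The rule separates position, not function, so the first question was where these sites lie in their genes. Most sat in the body of the assigned gene. In L2, 1499 of 1863 downstream peaks, or 80.5% (95% Wilson interval 78.6 to 82.2), lay wholly inside the assigned transcript, and in L1 5507 of 7103, or 77.5% (76.5 to 78.5), did. Another 31 L2 peaks and 164 L1 peaks crossed the transcript's end. The remaining 333 L2 peaks (17.9%) and 1432 L1 peaks (20.2%) lay past the end. All intervals cover counting error over peaks only.

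**Figure D1:**
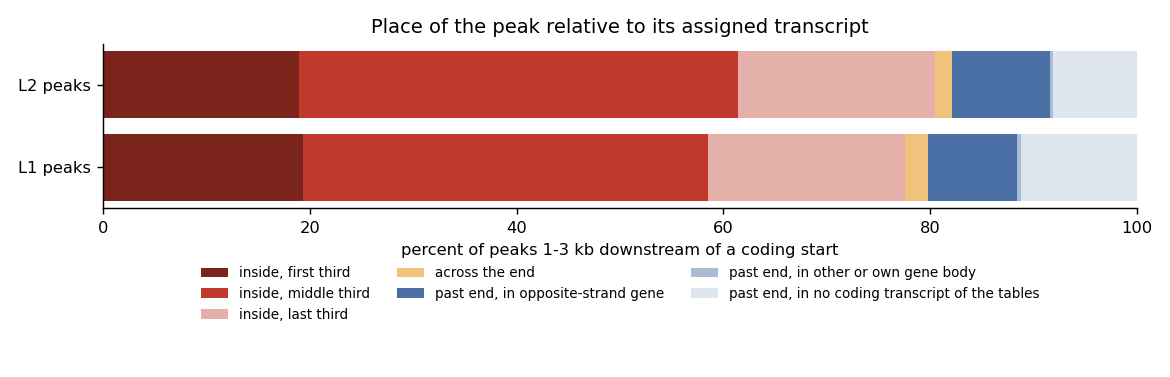
Share of downstream peaks, in percent, by place relative to the assigned transcript, with L2 above L1 (red shades, inside by position of the peak centre; yellow, across the end; blue shades, past the end, split by what else lies there). The red shades together take up most of both bars (80.5% in L2 and 77.5% in L1).

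Peaks inside and past the end belonged to transcripts of unlike length, which the rule partly fixes, since a transcript must exceed 1 kb to hold such a peak. The median transcript spanned 3797 bp for inside peaks and 1080 bp for peaks past the end in L2, and 3806 bp and 1120 bp in L1. Where inside peaks lay along the transcript was also partly fixed by the rule, since at this distance from the start the first part of a transcript of that length is largely left out. By peak centre, 52.8% of inside peaks in L2 and 50.5% in L1 lay in the middle of the transcript when it is cut into 3 equal parts, 23.5% in L2 and 24.9% in L1 in the part next to the start, and 23.6% in L2 and 24.6% in L1 in the part next to the end. Peaks past the end began a median of 857 bp beyond it in L2 and 669 bp in L1. Of these, 177 of the 333 L2 peaks (53.2%) and 610 of the 1432 L1 peaks (42.6%) overlapped another coding gene on the opposite strand only. No coding transcript named in the annotated tables covered 152 of them in L2 and 795 in L1. For peaks of this kind the assigned gene's name is the nearest address, not the gene that holds the peak.

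Downstream sites outnumbered upstream ones at the same distance. In L2 there were 1863 peaks 1 to 3 kb downstream of a coding start and 677 upstream, 2.75 times as many. In L1 there were 7103 downstream and 2951 upstream, 2.41 times as many. The excess held in each 500 bp window. Between 1 and 1.5 kb, L2 had 695 downstream against 275 upstream peaks, and L1 had 2870 against 1238. Between 2.5 and 3 kb, L2 had 258 against 81, and L1 had 927 against 373. The genome's share of each class was not computed, so these counts are not densities. At the inner limit of the rule the counts ran on smoothly, with 157 L2 and 700 L1 peaks in the 100 bp just beyond 1 kb and 186 L2 and 662 L1 peaks in the 100 bp just before it.

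**Figure D2:**
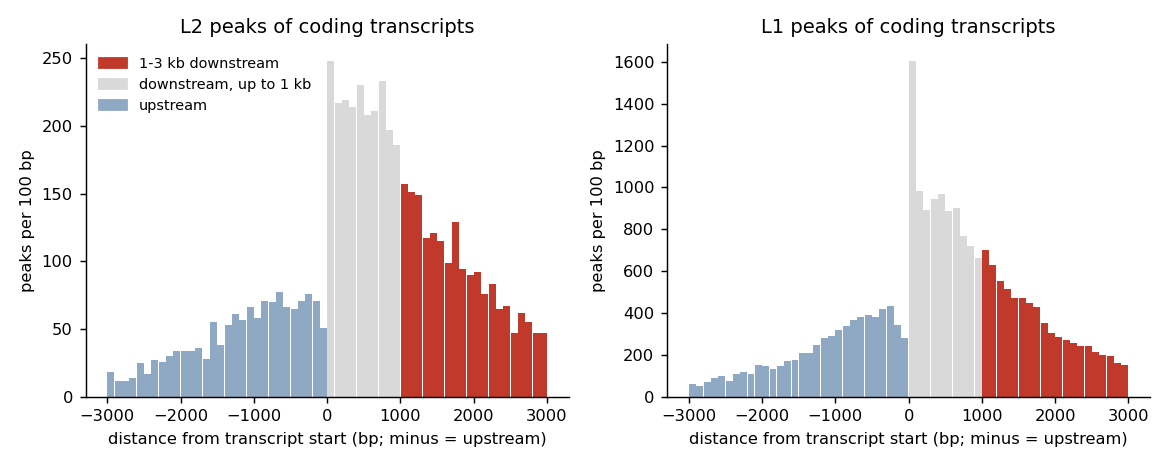
Number of peaks (y axis) by distance from the assigned coding start in 100 bp steps (x axis), downstream (red beyond 1 kb, grey nearer) and upstream (blue), for L2 on the left and L1 on the right; peaks over the start itself are not drawn. Downstream counts exceed upstream counts in each 500 bp window from 1 to 3 kb, for example 695 against 275 in L2 at 1 to 1.5 kb.

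Downstream peaks were spread over many genes, mostly with 1 peak each. They were assigned to 1665 genes in L2 and 5350 in L1. Of 19983 coding genes in the RefSeq table, 8.25% had a downstream peak in L2 and 26.5% in L1. At least 2 such peaks were assigned to 179 genes in L2 and 1438 in L1, and at least 3 to 18 genes in L2 and 278 in L1. The X chromosome held 336 of the L2 downstream peaks, or 18% (16.4 to 19.8), against 15.0% of all L2 peaks assigned to coding transcripts. In L1 it held 1398, or 19.7% (18.8 to 20.6), against 16.8%. Downstream peaks on X were assigned to longer transcripts than those on autosomes. The median span was 3758.5 bp on X against 3107 bp on autosomes in L2, and 3453 bp against 3022 bp in L1. The part of transcript length in the X shares was not tested.

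Most peaks were weak in both stages, with medians close to those of peaks nearer the start or upstream. Peak strength is given as the fold enrichment of ChIP over control at the summit, as the authors' peak caller wrote it, and it is compared only within a stage. In L2 the median fold enrichment was 1.54 for downstream peaks, for upstream peaks and for peaks within 1 kb of a start, and 1 downstream peak reached 2. In L1 the median was 1.82 for downstream peaks and 1.80 for both other classes. Downstream, 1849 L1 peaks (26%) reached 2, against 24.7% of all L1 peaks, and 8 of the 29 L1 peaks at 3 or more were downstream. The median width was 249 bp in L2 and 293 bp in L1.

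The strongest downstream L2 peaks were all inside their assigned genes. T19D12.1 led with a fold enrichment of 2.08 (chromosome II, 6669508 to 6670174), and its overlapping L1 peak had 2.66. All positions are as in the files, except that each start is moved on by a base. The sources used here do not give the genome build of these positions. R09A1.3 had 1.99 in L2 and 3.02 in L1. row-1 followed with 1.95 in L2 and 2.32 in L1. daf-22, which encodes a peroxisomal thiolase that makes ascaroside pheromones, had 1.94 in L2 and 2.35 in L1. F41C3.2 had 1.94 in L2 and 3.12 in L1, where the overlapping peak is not a downstream one. got-2.2, an aminotransferase gene, had 1.92 in L2 and 2.11 in L1.

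The strongest downstream L1 peaks lay in or near genes of unlike function, and R09A1.3 was the only gene at the top in both stages. First came a broad peak of 2169 bp assigned to srlf-20 (chromosome V, 895152 to 897320), and its fold enrichment was 3.31. It lay past the end of srlf-20 and overlapped nas-32, an astacin-family metalloprotease gene. The next, at 3.19, lay inside wdr-31, which encodes a WD-repeat protein (chromosome II, 2733146 to 2733990). A peak past the end of srj-19, a chemoreceptor gene, had 3.06 and overlapped Y45G12C.1. A peak inside grl-5, a hedgehog-related gene, had 3.05. So did a peak past the end of Y71F9AR.10, which overlapped bam-2, a gene of axon branching. T01D3.6 had 3.03. Peaks inside R09A1.3 (chromosome V, 1025042 to 1025696) and syd-2 (chromosome X, 10551975 to 10552249) both had 3.02. syd-2 encodes liprin-alpha, a scaffold of presynaptic sites. twk-47, a gene of the potassium channel family with paired pore domains, and Y22D7AR.7 had 2.97. Of these 10 peaks, 9 overlapped an L2 peak, and the one in syd-2 did not.

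Nearly all downstream L2 peaks lay where L1 also had a peak. An L1 peak overlapped 1828 of the 1863 by at least 1 bp, 98.1% (97.4 to 98.6), and for 1575 of them that L1 peak was itself a downstream one. The share was 98.4% for upstream L2 peaks and 97.2% for those within 1 kb of a start. In the other direction, 1602 of the 7103 downstream L1 peaks, 22.6% (21.6 to 23.5), overlapped an L2 peak, against 18.9% of upstream L1 peaks, 20.8% within 1 kb of a start and 20.9% of all L1 peaks. This share followed L1 strength. When downstream L1 peaks were put in 5 bins of equal size by fold enrichment, it was 4.64%, 10.4%, 14.8%, 26.6% and 56.3% in order from the weakest to the strongest bin. Read depth may differ between the stages, and its part in this pattern was not tested.

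The 35 downstream L2 peaks outside every L1 peak were weak. The strongest 3, chosen after their values were seen, lay in C44H9.6 (1.66), in sptl-3 (1.65), a subunit gene of serine palmitoyltransferase, and past the end of fbxa-163 (1.6), an F-box gene. The median fold enrichment of the 35 was 1.45, against 1.54 for the 1828 that overlapped an L1 peak.

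Whether a gene with a downstream peak also had one at its start differed widely between the lists, which differ in length. In L2, 381 of 1665 such genes, 22.9% (20.9 to 25.0), also had a peak within 1 kb of a start of the same gene. In L1, 3448 of 5350 did, 64.4% (63.2 to 65.7). As background, 2847 genes in L2 and 11028 in L1 had a peak within 1 kb of a coding start, beside 19983 coding genes in the RefSeq table. The shares are thus not read as a trait of genes with a downstream peak. Where both were present, each place was represented by its strongest peak, and the medians of both places were close. In L2 the median fold enrichment was 1.54 downstream and 1.56 at the start, with the downstream peak higher in 180 of 381 genes. In L1 it was 1.88 at both places, with the downstream peak higher in 1703 of 3448 genes. These are medians of the highest value per gene, so they are not comparable with the medians over all peaks given above. Over all downstream L1 peaks of genes with a start peak the median was 1.83. Across genes, the strengths at both places had a Spearman correlation of -0.09 in L2 (n = 381) and 0.07 in L1 (n = 3448). Both peaks of a pair come from the same merged libraries, and genes are not independent replicates.

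The second question was how occupancy at these sites differed in L2 from L1. At almost all sites that the comparison lists, it was lower. The authors' deposited table gives each listed site a log2 mean read concentration in each stage, their log2 fold as L2 minus L1, and a false discovery rate (FDR), and it lists sites up to an FDR of 0.3. Sites with little change are thus left out, and 1360 of the 1863 downstream L2 peaks (73%) and 2845 of the 7103 downstream L1 peaks (40.1%) overlapped a site of the authors' deposited table. In the authors' deposited table, 1215 of 2988 downstream sites, 40.7% (38.9 to 42.4), fell in L2 at an FDR below 0.05, against 41.4% of all 14675 listed sites. Only 4 sites, 0.134%, rose in the authors' deposited table, against 0.123% of all listed sites. Both shares were close to that background. The log2 fold was below 0 at 2984 of the 2988 downstream sites in the authors' deposited table and above 0 at the other 4. Its median was -0.44, which is 26.3% less in L2, with quartiles of -0.54 and -0.35, and over all sites of the authors' deposited table it was -0.44 as well. The median concentration of downstream sites was 5.59 in L2 and 6.04 in L1 on the log2 scale of the authors' deposited table. The sources used here do not give how the libraries were scaled to each other, and the sign of a shift shared by nearly all sites depends on it.

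**Figure D3:**
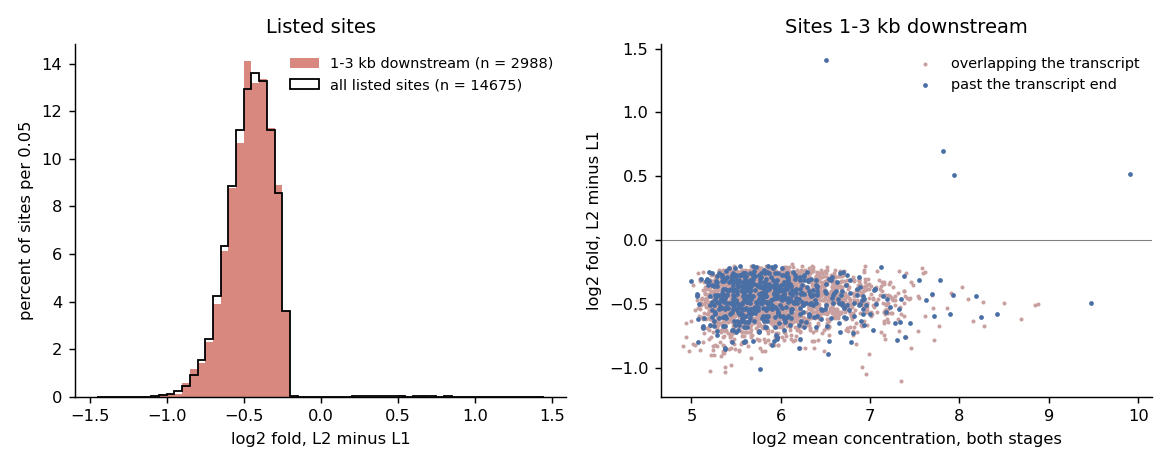
Left, distribution of the log2 fold (L2 minus L1) over downstream sites and over all listed sites of the authors' deposited table; right, log2 fold against mean log2 concentration for the downstream sites. Both distributions centre on -0.44, 2984 of 2988 downstream sites lie below 0, and the gap next to 0 is where the table, which stops at an FDR of 0.3, lists no site.

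The share that fell changed little with distance and place, and more with concentration. Of downstream sites in the authors' deposited table, 39.0% fell at 1 to 1.5 kb, 41.2% at 1.5 to 2 kb, 42.9% at 2 to 2.5 kb and 41.5% at 2.5 to 3 kb. Inside the assigned transcript 954 of 2358 fell in the authors' deposited table (40.5%), and past its end 239 of 558 (42.8%). By the authors' deposited table the share was 40.2% for upstream sites and 40.9% within 1 kb of a start. At mean log2 concentrations up to 5.5, 36.5% of downstream sites fell in the authors' deposited table, and above 7, 63.6% did. The corresponding shares over all listed sites of the authors' deposited table were 36.7% and 61.1%. By the authors' deposited table, the median log2 fold was -0.46 at the lowest of these concentrations and -0.48 at the highest.

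The share of downstream sites that fell ranged over the chromosomes from 35.1% on X and 36.7% on V to 45.2% on IV in the authors' deposited table. By the authors' deposited table, 194 of 553 downstream X sites fell, 35.1% (31.2 to 39.1), with a median log2 fold of -0.42. On chromosome V 206 of 561 downstream sites fell in the authors' deposited table, with a median of -0.43, a share within the interval of X. On the other autosomes the shares lay between 41.9% and 45.2% in the authors' deposited table. Over all listed sites of the authors' deposited table the shares were 36.9% on X, 39.2% on V and between 41.3% and 44.7% on the other autosomes. No test of these differences was run, because sites are not replicates.

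Nearly all listed downstream sites overlapped an L1 peak (2981 of 2988, by the authors' deposited table), whether they fell or not, and fewer overlapped an L2 peak. Of the 1215 that fell in the authors' deposited table, 447 (36.8%) overlapped some L2 peak, and 1213 (99.8%) overlapped some L1 peak. Of the 1769 downstream sites that passed in neither direction in the authors' deposited table, 758 (42.8%) overlapped an L2 peak and 1766 (99.8%) an L1 peak. The L1 list is much longer (37018 peaks, against 8333 in L2), and its part in these shares was not tested. The same overlap was not counted over all listed sites, so the shares are not read as a trait of downstream sites.

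In log2 fold, the 8 falls of lowest FDR in the authors' deposited table lay between -1.01 and -0.80, against a median of -0.56 over all downstream sites that fell. A choice by lowest FDR favours large folds, so nothing is read from this gap. The site in grl-15, a hedgehog-related gene of the groundhog-like family (chromosome III, 12233052 to 12233835), had log2 concentrations of 6.33 in L2 and 7.32 in L1 in the authors' deposited table, a log2 fold of -0.99 (FDR 0.00402). A site in npp-25, which encodes a nuclear pore protein (chromosome III, 12921508 to 12921774), had 4.80 in L2 and 5.78 in L1 in the authors' deposited table, a fold of -0.99 (FDR 0.00402). At syd-2 (chromosome X, 10551966 to 10552238) the authors' deposited table gives 5.29 in L2 and 6.16 in L1, a fold of -0.87 (FDR 0.00402). Its neighbours inside the same gene did not pass. They had log2 folds in the authors' deposited table of -0.25 (FDR 0.255) and -0.35 (FDR 0.115).

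Both downstream sites of egl-3 fell. This gene encodes the proprotein convertase that cuts neuropeptide precursors. By the authors' deposited table, its site at 10170981 to 10171471 on chromosome V had 5.90 in L2 and 6.73 in L1, a log2 fold of -0.84 (FDR 0.00658), and the other a fold of -0.61 (FDR 0.0192). The site in mrck-1, a gene of a kinase that acts on actomyosin, had 5.98 in L2 and 6.85 in L1 in the authors' deposited table, a fold of -0.87 (FDR 0.00635). Past the ends of C17D12.5, srh-37 and F25B5.3, the authors' deposited table gives folds of -1.01 (FDR 0.00505), -0.80 (FDR 0.00586) and -0.80 (FDR 0.00658). srh-37 is a chemoreceptor gene, and the site assigned to F25B5.3 overlaps nono-1. Of these 8 sites all overlapped an L1 peak, and the mrck-1 site alone overlapped an L2 peak.

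The most negative folds were not those of lowest FDR. Y95D11A.5 had 6.70 in L2 and 7.80 in L1 in the authors' deposited table, a log2 fold of -1.1 (FDR 0.0393). R09A1.3, named above for its strong peaks in both stages, had 6.33 in L2 and 7.38 in L1 in the authors' deposited table, a fold of -1.05 (FDR 0.0179). Y54B9A.1 (-1.03, FDR 0.0467) and tsen-54 (-1.02, FDR 0.0469), which encodes a subunit of the tRNA splicing endonuclease, followed in the authors' deposited table. With C17D12.5 these make up the 5 downstream sites at -1 or below. A site at the median was the one assigned to T13C5.7, with 5.25 in L2 and 5.69 in L1 in the authors' deposited table, a fold of -0.44 (FDR 0.0839).

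The 4 downstream sites that rose lay past the end of the assigned transcript, at 3 genes, and none overlapped an L2 peak. The largest rise was assigned to Y70G10A.4 (chromosome III, 10224522 to 10224780), with 7.05 in L2 and 5.64 in L1 in the authors' deposited table, a log2 fold of 1.41 (FDR 0.00713). No peak of either stage overlapped it. A neighbour of the same gene had 10.15 in L2 and 9.63 in L1 in the authors' deposited table, a fold of 0.52 (FDR 0.0148), and overlapped an L1 peak of 2.36. The remaining listed site there had -0.33 (FDR 0.125) in the authors' deposited table. The site assigned to cpn-3, a calponin-family gene of muscle, had 8.13 in L2 and 7.43 in L1 in the authors' deposited table, a fold of 0.70 (FDR 0.0162), and overlapped an L1 peak of 1.26, the lowest fold enrichment of any downstream L1 peak. The site assigned to clc-22 (chromosome II, 3994597 to 3994904) had 8.17 in L2 and 7.66 in L1 in the authors' deposited table, a fold of 0.51 (FDR 0.0373), and overlapped no peak. The next highest fold was already negative. It was -0.19 (FDR 0.298) at gcy-6, a receptor guanylyl cyclase gene, in the authors' deposited table.

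The sites of highest mean concentration, a value not scaled by length, were mostly broad. The first was the Y70G10A.4 site with 9.91 in the authors' deposited table. Y49G5A.1 had 9.21 in L2 and 9.69 in L1 in the authors' deposited table, a log2 fold of -0.49 (FDR 0.0677). H43E16.1, with a site of 3318 bp, had 8.60 in L2 and 9.11 in L1 in the authors' deposited table, a fold of -0.50 (FDR 0.045). hrg-11.2 (3264 bp, fold -0.51, FDR 0.0325) and C09F9.2 (3008 bp, fold -0.62, FDR 0.0195) fell as well in the authors' deposited table.

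In 920 genes both places had a listed site, and each place was represented by its site of highest concentration. By the authors' deposited table, the median log2 fold was -0.45 downstream and -0.44 at the start, and the median difference was -0.01 with quartiles of -0.14 and 0.12. The downstream site was the more negative one in 472 genes of the authors' deposited table, the start site in 425, and 23 were equal. Both places fell in 191 genes, the downstream site only in 216, the start only in 208 and neither in 305 in the authors' deposited table. Across the 920 genes Pearson's correlation of the log2 folds was 0.13 and Spearman's 0.11. Each site is in the table only because its own FDR was 0.3 or less, which leaves out folds near 0 and narrows the range, so the correlation holds for listed pairs alone and is no measure of how the places go together over all genes. Both sites share the same libraries, and genes are not independent replicates.

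**Figure D4:**
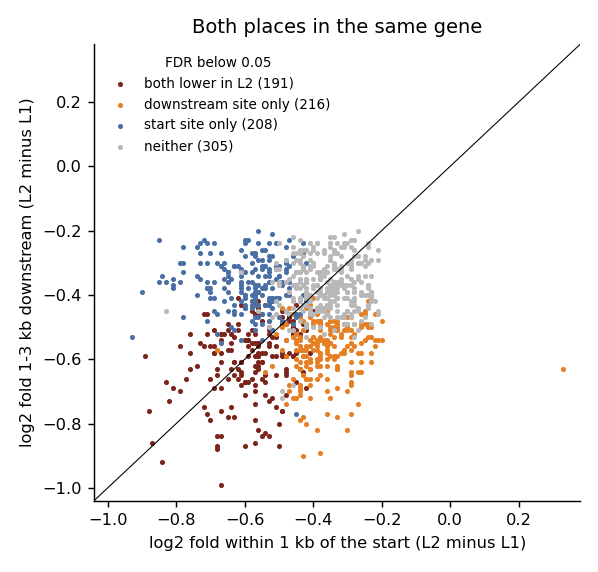
Log2 fold (L2 minus L1) at the downstream site (y axis) against that within 1 kb of the start (x axis) for 920 genes with both, coloured by which of them has an FDR below 0.05. Most points lie below 0 on both axes, away from the folds near 0 that the table does not list.

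The 3 genes whose values at both places differed most, chosen after their values were seen, went in both directions. The downstream site of C55B7.3 fell (log2 fold -0.63, FDR 0.015) while its start site had 0.33 (FDR 0.0744) in the authors' deposited table. At sli-1, the worm Cbl ubiquitin ligase gene, the downstream fold was -0.23 (FDR 0.248) and the start fold -0.85 (FDR 0.0174) in the authors' deposited table. At nhr-76, a nuclear hormone receptor gene, the downstream fold was -0.25 (FDR 0.224) and the start fold -0.78 (FDR 0.0085) in the authors' deposited table.

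Of 371 genes with at least 2 listed downstream sites, all sites fell in 64, some in 172 and none in 135 in the authors' deposited table. Over all downstream sites 40.7% fell, and nothing about the genes is read from these counts beside that share. The median spread between the highest and lowest log2 fold of a gene was 0.13.

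Genes with the most downstream peaks included large genes of matrix and attachment. unc-52, the worm perlecan of muscle basement membrane, had no downstream L2 peak and 8 downstream L1 peaks, assigned to 3 of its transcripts, with fold enrichments of 1.52 to 2.44. Its listed downstream sites had log2 folds of -0.52 (FDR 0.0337) and -0.26 (FDR 0.246) in the authors' deposited table. rin-1, which encodes a Ras and Rab interactor, had no downstream peak in L2, 7 in L1, of 1.59 to 2.12, and no listed downstream site. R193.2 had 5 downstream L1 peaks, of 1.55 to 2.18. Its listed downstream sites had folds of -0.35 and -0.31, neither past the threshold in the authors' deposited table. let-805, the muscle attachment protein myotactin, had 1 downstream peak in L2, of 1.45, and 5 in L1, of 1.63 to 2.32. Of its 3 listed downstream sites 1 fell, with a log2 fold of -0.68 (FDR 0.0219) in the authors' deposited table. C27D8.3, 1 of several genes tied at 4, had downstream L1 peaks of 1.88 to 2.26.

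In L2 the gene with the most was mup-4, a transmembrane protein of the epidermal attachment to muscle. It had 4 downstream L2 peaks, of 1.51 to 1.65, within the span of 2 broader L1 peaks, of 2.32 and 2.36. Of its listed downstream sites 1 fell (log2 fold -0.56, FDR 0.0304) and 1 did not pass (-0.39, FDR 0.0671) in the authors' deposited table. Several narrow L2 peaks inside a wider L1 peak also occurred past the ends of F41G3.18 and K08D10.13, each with 3 L2 peaks and 1 L1 peak.

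Among genes with the most listed downstream sites the calls at these sites ranged from none to all. Listed sites of these genes at other distances are not counted here. At ketn-1, the kettin gene of muscle thin filaments, 3 of 4 sites fell, with log2 folds of -0.71 (FDR 0.00975), -0.56 (FDR 0.0306) and -0.49 (FDR 0.0321), and the fourth had -0.37 (FDR 0.124) in the authors' deposited table. At cht-1, a chitinase gene, none of 4 sites passed, with folds between -0.41 and -0.26 in the authors' deposited table. At Y16B4A.2, 1 of 4 fell (-0.65, FDR 0.017) in the authors' deposited table. C09G9.1 had 3 of 3 falling, between -0.74 and -0.50, and F43B10.1 had 2 of 3 in the authors' deposited table.

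The downstream sites of heterochronic genes lay before the end of the gene. Of 21 such coding genes, 7 (33.3%) had a downstream L2 peak and 14 (66.7%) a downstream L1 peak, against 8.25% in L2 and 26.5% in L1 over all coding genes, and the 27 L1 peaks all lay inside the assigned transcript. There were 15 listed downstream sites at 11 of them in the authors' deposited table, of which 7 fell and none rose, with a median log2 fold of -0.49 against -0.44 over all listed sites. That is 46.7%, to be read against the 41.4% of all listed sites. Gene length and the number of starts per gene were not matched between this list and all coding genes. The shares of genes with a downstream peak are thus not read as a trait of heterochronic genes.

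The genes of the early and middle larval programme stood on both sides of the threshold. lin-14 itself had 1 downstream L2 peak (1.56) and 1 downstream L1 peak (1.7), at different places on chromosome X, 11482036 to 11482316 and 11481367 to 11481564. The place of the L2 peak was not empty in L1, since an L1 peak other than that downstream one overlapped it. The listed downstream site of lin-14 had 5.46 in L2 and 5.73 in L1 in the authors' deposited table, a log2 fold of -0.27 that did not pass (FDR 0.222). hbl-1, a zinc-finger gene of the second-stage programme, had 3 downstream L2 peaks, of 1.35, 1.54 and 1.5, and 2 broader L1 peaks, of 1.94 and 1.82. For its site nearer the start the authors' deposited table gives 5.86 in L2 and 6.35 in L1, a fold of -0.49 (FDR 0.0262), and for the farther one 6.24 in L2 and 6.53 in L1, a fold of -0.29 (FDR 0.2). The downstream site of sea-2, a zinc-finger gene, had 4.99 in L2 and 5.79 in L1 in the authors' deposited table. It fell by the most of this list's downstream sites (-0.79, FDR 0.0117). puf-9, a Pumilio-family gene, had no L2 peak and 4 downstream L1 peaks, of 1.63 to 1.88. Its listed downstream site did not pass (-0.54, FDR 0.0624), while its listed start site fell (-0.61, FDR 0.0215) in the authors' deposited table.

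The list holds 4 genes of the microRNA machinery with listed downstream sites. Of these 6 sites 3 fell in the authors' deposited table, beside 41.4% of all listed sites. They were grouped after their values were seen. alg-2, an Argonaute gene, had no downstream L2 peak and 2 downstream L1 peaks, of 2.18 and 2.27. Both of its listed downstream sites fell, with log2 folds of -0.66 (FDR 0.0118) and -0.74 (FDR 0.0125) in the authors' deposited table. alg-1, its close relative, had downstream L2 peaks of 1.58 and 1.55 and downstream L1 peaks of 2.14 and 2.50. The listed downstream sites of alg-1 missed the threshold, with folds of -0.43 and -0.38 in the authors' deposited table. No test of the difference between the genes was run. nhl-2, a cofactor of the microRNA complex, had 3 downstream peaks in each stage, of 1.72, 1.4 and 1.65 in L2 and of 2.58, 1.78 and 2.66 in L1. Its listed downstream site had 7.14 in L2 and 7.85 in L1 in the authors' deposited table, a fold of -0.71 (FDR 0.0139). The listed downstream site of ain-2, a GW182-family gene, had a fold of -0.38 (FDR 0.12) in the authors' deposited table. Within 1 kb of the start, the listed site of highest concentration fell at alg-1 (-0.61, FDR 0.0192), nhl-2 (-0.60, FDR 0.0167) and ain-2 (-0.71, FDR 0.0134). At alg-2 that start site did not pass (-0.48, FDR 0.0652) in the authors' deposited table.

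Among regulators of later stages, the downstream site of lin-41, a TRIM-NHL gene held down by let-7, fell in the authors' deposited table. It had 5.45 in L2 and 6.06 in L1, a log2 fold of -0.61 (FDR 0.0313). The downstream site of lin-29, a zinc-finger gene of the adult switch, had 5.67 in L2 and 6.06 in L1 in the authors' deposited table. It did not pass (-0.39, FDR 0.0735). dre-1, an F-box gene, had 1 site that fell (-0.58, FDR 0.0325) and 1 that did not pass (-0.34, FDR 0.151) in the authors' deposited table. blmp-1, a zinc-finger gene, had 1 downstream peak in L2 (1.54), which an L1 peak overlapped, and 1 downstream peak in L1 (1.7). lin-42, the worm Period gene, had 1 downstream peak in L1 (1.46). Neither gene had a listed downstream site. lep-2 had a downstream L1 peak only.

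Beyond timing, 19 further gene lists of the kind found in a larva were counted. In each of the 19, fewer genes had a downstream peak in L2 than in L1, as over all coding genes (8.25% in L2 and 26.5% in L1). The shares that fell are to be read against the 41.4% of all sites in the authors' deposited table. The 20 lists together hold 3064 genes and 429 of the listed downstream sites. Only downstream sites are counted for each list below. Gene length and the number of starts per gene were not matched between the lists and all coding genes. High or low shares of genes with a downstream peak are thus not read as a trait of a list.

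**Figure D5:**
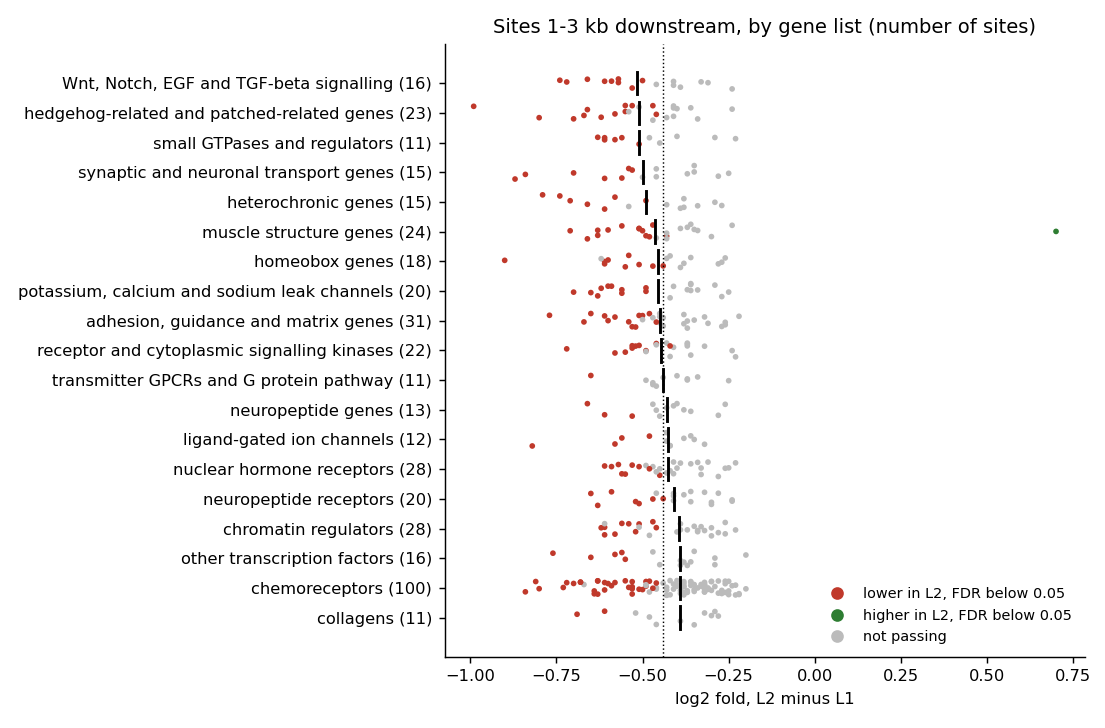
Log2 fold (L2 minus L1) of each listed downstream site in the authors' deposited table, by gene list, for lists with at least 5 sites, with the list's median marked and the median of all listed sites (-0.44) as a dotted line. The points of each list lie on both sides of that line, and 1 site, that of cpn-3 among the muscle genes, lies above 0.

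The lists of signalling and of body structure lay on both sides of the 41.4% of all listed sites. Of transmitter receptors and the G protein pathway 1 of 11 sites fell and of collagens 2 of 11 in the authors' deposited table. Of the sites of Wnt, Notch, EGF and TGF-beta genes, 9 of 16 fell in the authors' deposited table, with a median log2 fold of -0.52. They included sma-9, a zinc-finger cofactor of BMP signalling (-0.74, FDR 0.00937), apr-1, the worm APC (-0.59, FDR 0.016), and dsh-2, a Dishevelled (-0.57, FDR 0.0165), in the authors' deposited table. Of muscle structure genes, 25 of 45 had a downstream L1 peak (55.6%, against 26.5% of all coding genes) and 13 of 24 sites fell in the authors' deposited table, among them myo-2, a pharyngeal myosin heavy chain (-0.66, FDR 0.0132), while the cpn-3 site rose. Of hedgehog-related and patched-related genes, 12 of 23 sites fell in the authors' deposited table, with a median of -0.51, led by grl-15, grl-19 (-0.70, FDR 0.00858) and ptr-20 (-0.66, FDR 0.0139). Of small GTPases and their regulators 6 of 11 fell in the authors' deposited table. With 11 to 24 sites a list, these shares move by several percentage points for each site.

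Neuronal lists lay on both sides of the 41.4% of all listed sites. Of synaptic and neuronal transport genes, 7 of 15 sites fell in the authors' deposited table, and beside syd-2 and egl-3 they included cla-1, the active zone protein Clarinet (-0.70, FDR 0.0174). Of potassium, calcium and sodium leak channel genes, 10 of 20 fell in the authors' deposited table, among them unc-80, a subunit of the sodium leak channel complex (-0.65, FDR 0.0118), and kqt-3, a KCNQ channel (-0.62, FDR 0.0205). Of ligand-gated channels 4 of 12 fell in the authors' deposited table, among them lgc-45 (-0.82, FDR 0.0118) and eat-2, a nicotinic receptor of the pharynx (-0.56, FDR 0.0235). Of neuropeptide receptors 7 of 20 fell in the authors' deposited table, among them frpr-19 (-0.63, FDR 0.0181). Of transmitter receptors and the G protein pathway 1 of 11 fell, the octopamine receptor gene ser-6 (-0.65, FDR 0.0223), although the list's median in the authors' deposited table, -0.44, was that of all sites. Of neuropeptide genes 3 of 13 fell in the authors' deposited table, and 9 of their 13 sites lay past the end of the assigned gene.

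Chemoreceptors, the largest list with 1309 genes, had 63 genes with a downstream L2 peak and 256 with a downstream L1 peak, which is 4.81% in L2 and 19.6% in L1, against 8.25% in L2 and 26.5% in L1 over all coding genes. Of their 100 sites in the authors' deposited table, 31 fell, against 41.4% of all listed sites, with a median log2 fold of -0.39 against -0.44 over all listed sites. Of the 100 sites 47 lay past the end of the assigned receptor gene. After srh-37, the lowest FDR was at srh-277 (-0.84, FDR 0.0092) and sra-13 (-0.72, FDR 0.0118) in the authors' deposited table, both past the gene's end.

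Collagens, short genes of the cuticle, had downstream L1 peaks at 29 of 179 genes (16.2%, against 26.5% of all coding genes). Of their 11 sites in the authors' deposited table, 2 fell (18.2%, against 41.4% of all listed sites), at col-91 (-0.61, FDR 0.0191) and col-83 (-0.69, FDR 0.0267). The col-91 site lay past the end of that gene and overlapped ncr-2. Ribosomal protein genes, also short, had downstream L1 peaks at 2 of 58 genes (3.45%) and 1 listed site, past the end of rps-26, which fell (-0.62, FDR 0.026) in the authors' deposited table.

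The remaining lists lay on both sides of the 41.4% of all listed sites, and several were close to it. Among transcription factors, 9 of 18 homeobox sites fell in the authors' deposited table, led by eyg-1 (-0.90, FDR 0.00772) and php-3, a posterior Hox gene (-0.61, FDR 0.0225). Of nuclear hormone receptor sites 9 of 28 fell in the authors' deposited table, among them nhr-88 (-0.59, FDR 0.0217). Of the sites of other transcription factor families 5 of 16 fell in the authors' deposited table, among them hlh-28 (-0.76, FDR 0.0139), whose site lay past the gene's end. Of chromatin regulators, 6 of 79 genes had a downstream L2 peak (7.59%, against 8.25% of all coding genes) and 37 a downstream L1 peak (46.8%, against 26.5%), and 10 of 28 sites fell in the authors' deposited table, among them cbp-1, the worm CBP/p300 acetyltransferase (-0.58, FDR 0.0249). Of adhesion, guidance and matrix genes, 13 of 31 sites (41.9%) fell in the authors' deposited table, among them rig-1 (-0.77, FDR 0.00713), mab-20, a semaphorin (-0.65, FDR 0.0168), and lon-2, a glypican (-0.61, FDR 0.0212). Of signalling kinases, 10 of 22 (45.5%) fell in the authors' deposited table, among them daf-4, the type II TGF-beta receptor (-0.72, FDR 0.0183). None of these shares was tested against the background, because sites are not replicates and the lists were chosen with results known.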

How the data were processed

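ChIP and input libraries of whole LIN-14::GFP larvae were grouped by stage from the labels. The submitters' processing notes name BWA and SAMtools, MACS2, ChIPseeker and DiffBind. Versions, build, control libraries and normalization are not given in these sources. The deposited peak lists hold, per peak, a score, a fold enrichment ratio over control and a -log10 q-value, and were used as the authors wrote them. The authors' deposited comparison table gives, per the file headers, log2 concentrations per stage, a log2 fold, an FDR and its p-value. The fold equals the L2 minus the L1 concentration to within 0.01. No value per library is in these tables, so nothing was refitted and no test of this report's own was run. Depth per library is therefore unknown.

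Members were selected by annotation class, distance and transcript kind. Distances were recomputed from the tables' transcript starts to within 1 bp for all members. Place relative to the assigned transcript, overlap of peaks (at least 1 bp), counts, medians and 95% Wilson intervals were computed with pandas 2.3.3, NumPy 2.4.6 and SciPy 1.17.1 in Python 3.11.15 (figures: matplotlib 3.10.9), and the overlap step was tested on simulated data. Transcripts spanning more than 50000 bp were not used to find neighbouring genes. They were kept as assigned transcripts, so they count in the shares of peaks inside the transcript. The transcript assigned to the listed Y54B9A.1 site, for example, spans 402255 bp. Symbols came from a RefSeq table of assembly WBcel235, which matched 99.8% of L2 members, 99.9% of L1 members and 99.8% of listed members. Its coordinates were not used, because its gene coordinates seldom matched those of the files. The lowest coordinate of the gene equalled that of the assigned transcript for 1.93% of 18681 matched transcripts. A transcript shorter than its gene can differ there in any case, so this is not a share of matching transcript starts. No genome sequence was used here.

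Named genes were the downstream peaks of highest fold enrichment (10 in L1, 6 in L2), the 8 falls of lowest FDR, the 4 most negative folds, the rises up to 5 sites, the 5 sites of highest concentration, the 5 genes with the most downstream peaks or listed sites, the site of median fold, up to 3 genes per list, and heterochronic genes. Ties were broken by -log10 q, by fold or by name. The members, the 20 gene lists and the rule were chosen with earlier results of these data known, and the chemoreceptor list was narrowed to true receptor families after a first count. Lists hold protein-coding genes only.

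Alternatives were other FDR limits, stricter peaks, another overlap, any transcript, each distance class, 1 site per gene, inside sites only, autosomes only and the median of all listed sites subtracted.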

Additional observations from a re-analysis of the deposited data

How the results depend on the processing

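Of 37 alternative settings, 17 left a value within its interval or within 1.5 times its count and 20 moved it. The number of downstream sites that fell in L2 was 61 at an FDR below 0.01 and 2019 below 0.1, against 1215, and 1 site rose at an FDR below 0.01. With the median of all listed sites subtracted, the median log2 fold of downstream sites was 0. At a q-value of 1e-10 or less, 4 downstream L2 peaks and 2094 downstream L1 peaks were left (13.3% of L2 and 20.4% of L1 peaks of that strength). Where fold enrichment reached 2, 1 was left in L2 and 1849 in L1 (10% of L2 and 20.2% of L1 peaks). With any transcript, downstream peaks were 25.5% of L2 and 21.9% of L1 peaks. With reciprocal overlap of 50%, 57.8% of downstream L2 peaks overlapped an L1 peak, and 14.9% of downstream L1 peaks an L2 peak, and with both lists at a q-value of 1e-10 or less 100% of downstream L2 peaks overlapped an L1 peak and 0.334% of downstream L1 peaks an L2 peak. By centre, 79% of downstream L1 peaks lay inside the assigned transcript, and by transcript in place of gene, 60.2% had an L1 start peak. The share that fell was 39.9% to 42.3% and the median fold -0.45 to -0.44, against an interval of -0.45 to -0.44 for the median from the ranks of the sites, with any transcript, with each distance class, with 1 site per gene, inside the transcript only and on autosomes only. No paired analysis was possible because the files hold no values per library, and for the same reason no replicate could be left out. The depth behind each list is unknown.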
